A study of Mus musculus with 47 samples.

Results

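The serpin and kallikrein genes were described in thymic epithelial cells of mice as 87 protein-coding genes, 61 serpins (Serpina to Serpini) and 26 kallikreins (Klk), taken by gene symbol from 55471 genes listed in the deposited count tables, of which 21974 are protein coding. All 87 are listed for adult and for neonatal cells. Most lie in arrays. The 26 kallikreins form 1 cluster on chromosome 7 (GRCm38, positions 43690418 to 44229618, all on the plus strand), which runs from 12 genes, Klk14 to Klk15, to the 14 genes of the Klk1 and Klk1b group. The 23 clustered Serpina genes lie on chromosome 12 (103614786 to 104414329). Serpinb genes form a cluster of 11 on chromosome 1 (106861173 to 107610484) and a cluster of 15 on chromosome 13 (32842092 to 34002794). The other 12 serpins, here called single genes, stand alone or in pairs (Serpinf1 with Serpinf2, and Serpini1 with Serpini2).

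RNA was sequenced from medullary thymic epithelial cells (mTECs) of C57BL/6 mice, sorted as CD45-EpCAM+Ly51- cells and split by their MHC class II into a mature high fraction (mTEChi) and a low fraction (mTEClo). The 23 adult libraries, from mice of 4 to 6 weeks, were WT (7 mTEChi, 8 mTEClo) or AireKO (4 mTEChi, 4 mTEClo). The 24 neonatal libraries, from mice of 1 to 6 days, were mTEChi of 5 Ctrl, 3 EEDcKO, 3 AireKO and 3 AireEEDdKO samples and mTEClo of 3 Ctrl, 4 EEDcKO and 3 AireEEDdKO samples. EEDcKO mice lacked floxed Eed where Foxn1-Cre is active, that is in thymic epithelium, AireKO mice lacked Aire, and AireEEDdKO mice lacked both. Adult WT mice were 4 or 5 weeks old, and adult AireKO mice, all male, were 5 weeks (replicates 1 and 2) or 6 weeks (replicates 3 and 4) old in both fractions. Neonatal AireKO and AireEEDdKO mice were 4 to 6 days old, whereas neonatal Ctrl mTEClo came from mice of 1 to 3 days. Ctrl mTEChi and the EEDcKO libraries of either fraction came from mice of 1 to 6 days, and some neonatal libraries pooled male and female animals. The labels do not say that replicates came from separate animals, so the p-values measure the spread between libraries.

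Serpins are inhibitors that trap a protease by letting it cut an exposed loop, after which the serpin changes shape and holds the enzyme fast. Serpina genes mostly encode secreted plasma proteins of the liver, Serpinb genes encode intracellular inhibitors of leukocytes and stratified epithelia, and a few serpins have other duties, such as Serpinh1, a collagen chaperone, and Serpina7, the thyroxine carrier of plasma. Tissue kallikreins are secreted serine proteases: Klk5, Klk7 and Klk14 shed the outer layer of the epidermis, and the Klk1b genes, expanded in rodents, act in salivary gland and kidney. Aire, the autoimmune regulator, drives expression of tissue-restricted genes in mature mTECs, and EED is a part of PRC2, the Polycomb enzyme that methylates lysine 27 of histone H3 at silent genes.

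Every library held 1578579 to 4817418 counted reads. Levels are CPM, that is, counts scaled by TMM to a library of fixed size, and a gene was called when its adjusted p from edgeR's quasi-likelihood test was below 0.05 and its change at least 2-fold, of 19310 adult or 20196 neonatal genes tested. The filter on low counts looked at all groups of a table. A gene with reads in 1 group alone could thus be tested, and could be called only as higher in that group. A log2 fold change is given ± its standard error (SE) throughout, and a value in brackets after a gene is its log2 fold change. Aire stood at 753 to 921 CPM in adult WT mTEChi and between 17.1 and 39.3 CPM in adult AireKO mTEChi. In neonatal mTEChi it stood at 464 to 808 CPM in Ctrl, 44.8 to 115 CPM in AireKO and 9.94 to 32.3 CPM in AireEEDdKO libraries, and was lower in AireEEDdKO than in AireKO (log2 -1.76, adjusted p = 0.0284). Eed stood at 29.1 ± 7.93 CPM (SD, n = 5) in neonatal Ctrl mTEChi and 14.8 ± 4.63 CPM (n = 3) in EEDcKO mTEChi, and ranged from 23.3 to 25.9 CPM in Ctrl and from 14.1 to 16.4 CPM in EEDcKO mTEClo, a difference short of 2-fold (log2 -0.67, adjusted p = 0.0231). The mTEC markers (Epcam, Krt5, Krt8, Aire, H2-Aa, Cd80, Cd74) summed to 2768 to 3518 CPM in adult WT mTEChi. The 4 adult AireKO mTEChi libraries and AireKO mTEClo replicates 3 and 4 held 0 mitochondrial counts, against 6178 to 10339 in every other adult library. In adult mTEChi, genotype and this library property therefore cannot be told apart.

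Promoter windows of 300 bases (250 before to 50 after the RefSeq start, GRCm38.p6) matched 78 of the 87 genes. They are shown because the clusters differed in base content: the windows held a median of 3 CG dinucleotides against 7 over all 27025 genes, 1.5 in the 14 Klk1 and Klk1b windows, 4 in the 12 Klk4 to Klk15 windows and 0.5 in the 10 Serpinb windows of chromosome 1. The letters TTTAAA (read on both strands, as was each motif) occurred in 13 of the 14 Klk1 and Klk1b windows (92.9%), in 0 of the 12 Klk4 to Klk15 windows and in 13.3% of all windows, so the 2 ends of the kallikrein cluster separate by sequence as well as by name. Serpinb windows of chromosome 1 held TATAAA in 7 of 10 (70.0%, against 14.1% of all windows) and TGANTCA, the core letters of AP-1 sites, in 6 of 10 (60.0%, against 7.9%). TTTAAA reads the same on both strands and can share end bases with TATAAA. In pairwise alignment the Klk1 and Klk1b windows shared a median identity of 75.9% (91 pairs), with the highest value, 90.4%, between Klk1b11 and Klk1b16. Those windows, at chr7:43995627-43995926 and chr7:44137040-44137339, both on the plus strand, carry TTTAAA in capitals 40 and 39 bases before the start, and the RefSeq start of Klk1b16 lies 523 bases from the GENCODE start of the gene.
Klk1b11: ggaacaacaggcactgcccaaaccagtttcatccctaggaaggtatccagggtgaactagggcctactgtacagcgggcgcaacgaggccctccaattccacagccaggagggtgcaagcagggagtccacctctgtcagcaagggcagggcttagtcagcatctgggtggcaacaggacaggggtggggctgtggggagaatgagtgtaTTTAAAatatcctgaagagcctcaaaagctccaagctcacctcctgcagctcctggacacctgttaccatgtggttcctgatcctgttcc
Klk1b16: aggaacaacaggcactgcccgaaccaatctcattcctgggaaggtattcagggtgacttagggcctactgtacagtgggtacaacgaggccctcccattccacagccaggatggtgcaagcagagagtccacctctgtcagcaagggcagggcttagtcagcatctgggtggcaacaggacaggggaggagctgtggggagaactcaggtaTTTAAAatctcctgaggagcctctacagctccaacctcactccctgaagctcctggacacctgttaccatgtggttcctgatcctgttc

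Serpinb2 (chr1:107511173-107511472) and Serpinb8 (chr1:107589756-107590055), both on the plus strand of chromosome 1, carry the AP-1 letters in capitals, and Serpinb2 also TATAAA at -29 and TTTAAA at -216. They are neighbours in the genome that differed in the AireKO comparison below.
Serpinb2: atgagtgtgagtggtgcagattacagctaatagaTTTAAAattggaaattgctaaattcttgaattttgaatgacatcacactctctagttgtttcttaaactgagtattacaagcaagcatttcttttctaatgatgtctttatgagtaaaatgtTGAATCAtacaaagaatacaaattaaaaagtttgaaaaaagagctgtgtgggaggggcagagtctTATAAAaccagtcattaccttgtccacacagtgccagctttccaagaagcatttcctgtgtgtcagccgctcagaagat
Serpinb8: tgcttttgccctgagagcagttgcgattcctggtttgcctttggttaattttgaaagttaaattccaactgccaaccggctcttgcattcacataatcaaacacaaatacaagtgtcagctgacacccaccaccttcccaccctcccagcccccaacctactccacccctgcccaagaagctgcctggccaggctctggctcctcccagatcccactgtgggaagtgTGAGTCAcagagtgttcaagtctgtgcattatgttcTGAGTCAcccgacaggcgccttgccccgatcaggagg

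Klk8 (chr7:43797327-43797626, plus strand) and Serpine2 (chr1:79858616-79858915, minus strand, 2515 bases from the GENCODE start) hold 23 and 41 CG dinucleotides, the highest counts among kallikrein and serpin windows, and none of the 3 motifs, so no letters are in capitals. They are shown because these genes were higher without EED in the data below.
Klk8: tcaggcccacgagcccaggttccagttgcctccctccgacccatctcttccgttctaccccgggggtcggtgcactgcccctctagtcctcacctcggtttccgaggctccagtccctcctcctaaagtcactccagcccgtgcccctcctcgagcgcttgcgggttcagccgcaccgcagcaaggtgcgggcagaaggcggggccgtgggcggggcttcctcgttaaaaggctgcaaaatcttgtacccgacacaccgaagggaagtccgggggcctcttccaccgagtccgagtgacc
Serpine2: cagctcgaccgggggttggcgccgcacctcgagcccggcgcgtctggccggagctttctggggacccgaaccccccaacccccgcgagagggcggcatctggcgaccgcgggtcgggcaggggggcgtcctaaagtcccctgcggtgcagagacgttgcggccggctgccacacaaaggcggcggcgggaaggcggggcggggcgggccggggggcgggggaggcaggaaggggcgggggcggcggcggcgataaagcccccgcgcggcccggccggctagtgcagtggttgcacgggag

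The first comparison asked how the genes are used in mature against less mature mTECs. Compared per kilobase of exon, Serpinb9 (78.2 CPM per kb), the intracellular inhibitor of granzyme B, Serpinb1a (76.8), an inhibitor of neutrophil elastase, Serpinb2 (51.7), plasminogen activator inhibitor 2, and Serpinb12 (46.1) had the highest mean levels of all members in adult WT mTEChi. Klk1 (35.8 CPM per kb), the true tissue kallikrein that releases kinins, led the kallikreins, followed by Klk1b11 (30.2), Klk1b9 (29.3) and Klk4 (27.3), and Serpina3g (32.2), an inhibitor of cathepsins, led the Serpina cluster. In neonatal Ctrl mTEChi, Serpina3g had 82.1, 71.6, 76.7, 77.1 and 71.4 CPM and Serpinb9, again the highest per kilobase, 244, 247, 256, 246 and 248 CPM. In adult WT mTEClo the order was another one, with Serpinh1 (79.5 CPM per kb), Serpinb1a (63.4) and Serpina3i (52.1) on top.

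In adult WT cells 35 of 56 tested members were higher and 5 lower in mTEChi than in mTEClo, where 23.7% and 12.4% of all tested genes were called. Of the 24 tested kallikreins 19 were higher and 0 lower, with a median log2 fold change of 2.7 against 0 over all genes. Summed over the cluster, kallikreins reached 440 ± 45.8 CPM (SD, n = 7) in mTEChi and 135 ± 32.1 CPM (n = 8) in mTEClo. Klk4, the enamel protease, ranged from 24.0 to 44.6 CPM (median 34.2) in mTEChi and from 0 to 2.30 CPM (median 0.128) in mTEClo, a log2 difference of 6.38 ± 0.33 (adjusted p = 4.29e-16). Klk1b26 ranged from 28.4 to 42.7 CPM (median 32.3) and from 0 to 2.01 CPM (median 0.687), a log2 difference of 5.11 ± 0.26 (adjusted p = 4.22e-16). For both genes every mTEChi library lay far above every mTEClo library. Klk1b22, an epidermal growth factor-binding protease, ranged from 6.30 to 14.2 CPM (median 10.4) in mTEChi and from 0 to 1.01 CPM (median 0) in mTEClo (5.37 ± 0.45), and Klk1b9 from 20.4 to 31.6 CPM (median 25.8) and from 0 to 3.45 CPM (median 0.415) (5.25 ± 0.36), so both were mTEChi genes too. Klk1, Klk7, Klk10, Klk11 and Klk13 were not called. Klk1 ranged from 29.4 to 52.0 CPM (median 32.8) in mTEChi and from 8.73 to 48.8 CPM (median 28.7) in mTEClo, and Klk7 stood at 40.1 ± 9.09 CPM (SD, n = 7) and 25.6 ± 5.81 CPM (n = 8).

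Among the serpins, Serpinb13, an inhibitor of lysosomal cathepsins made in squamous epithelia, ranged from 3.55 to 10.3 CPM (median 9.60) in WT mTEChi and from 0 to 0.305 CPM (median 0) in WT mTEClo (6.49 ± 0.50, adjusted p = 7.78e-11). Serpinb9b ranged from 8.67 to 14.3 CPM (median 11.4) and from 0 to 0.600 CPM (median 0) (5.84 ± 0.40, adjusted p = 2.6e-13). Serpinb9 stood at 273 ± 51.8 CPM (SD, n = 7) and 80.1 ± 7.82 CPM (n = 8), a log2 difference of 1.76 ± 0.09 (adjusted p = 4.01e-16). All 3 were mTEChi genes without overlap between the fractions. The 5 members higher in mTEClo were Serpina3n, an inhibitor of leukocyte proteases (-2.11 ± 0.26), Serpinh1 (-2.02 ± 0.15), Serpinb5, known as maspin (-1.55 ± 0.28), Serpina10, an inhibitor of coagulation factor X (-1.28 ± 0.22), and Serpina3i (-1.04 ± 0.12). In WT mTEChi and mTEClo, Serpina3n ranged from 2.7 to 8.57 CPM (median 6.20) and from 17.2 to 35.1 CPM (median 27.1). Serpinh1 ranged from 34.1 to 55.3 CPM (median 50.7) and from 151 to 244 CPM (median 198). Serpinb5 ranged from 4.83 to 10.8 CPM (median 8.21) and from 21.8 to 27.5 CPM (median 24.4). The mTEClo libraries lay above all mTEChi libraries for these 3 genes. Serpina10 ranged from 5.81 to 16.2 CPM (median 8.57) and from 13.2 to 37.2 CPM (median 20.8), and Serpina3i from 48.0 to 60.7 CPM (median 55.7) and from 75.1 to 137 CPM (median 122), and the Serpina3i difference was short of 2-fold with DESeq2 (-0.97). Marker lists of other cell types also differed between the WT fractions. Tuft cell markers summed to 882 to 1240 CPM in mTEClo and 136 to 235 CPM in mTEChi, enterocyte and hepatocyte markers to 29.7 to 68.0 and 193 to 257 CPM, and myeloid markers to 33.9 to 63.1 and 231 to 294 CPM, and their part in the result was not tested.

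In neonatal Ctrl cells, fitted apart from the adult ones, 29 of 59 tested members were higher and 3 lower in mTEChi, against 13.8% and 6.92% of all genes. Klk8, a protease of skin and hippocampus, had 9.56, 11.6, 9.90, 6.07 and 14.1 CPM in mTEChi and 3.04, 2.81 and 0.563 CPM in mTEClo (2.12 ± 0.36, adjusted p = 0.00013). Serpinf1, the secreted pigment epithelium-derived factor, had 9, 5.78, 9.63, 19.0 and 17.6 CPM in mTEChi and 64.5, 61.0 and 83.8 CPM in mTEClo (-2.43 ± 0.26, adjusted p = 8.86e-07). Klk8 lay higher in every mTEChi library than in any mTEClo library, and Serpinf1 lower. Serpinh1 (-1.82 ± 0.23) and Serpine2 (-1.50 ± 0.22), an inhibitor of thrombin and plasminogen activators, were the other members lower in mTEChi. Klk1b5 (2.15 ± 0.72), Klk1b8 (2.08 ± 0.66), Klk1b9 (2.03 ± 0.52), Klk14 (1.98 ± 0.60) and Klk1b11 (1.97 ± 0.53) were among the 17 of 22 tested kallikreins that were higher. Klk1b5 had 7.31, 8.09, 5.50, 6.07 and 5.86 CPM in mTEChi and 2.03, 1.40 and 0.563 CPM in mTEClo. Klk1b8 had 8.44, 7.51, 5.78, 9.24 and 11 CPM and 2.36, 1.75 and 1.69 CPM, Klk1b9 18.6, 17.3, 19.0, 18.7 and 19.4 CPM and 6.42, 3.51 and 3.38 CPM. Klk14 had 20.2, 19.6, 28.3, 19.3 and 34.7 CPM and 7.43, 6.31 and 4.5 CPM, and Klk1b11 19.1, 13.9, 28.6, 29.3 and 17.8 CPM and 5.40, 8.42 and 2.25 CPM. No mTEClo library of these 5 genes reached the mTEChi values, but Klk1b5 and Klk1b8 lost the call without mTEClo Ctrl replicate 2 or 3 and Klk14 without replicate 3. Beside these differences, cortical epithelial markers summed to 1810 to 2727 CPM in mTEClo and 387 to 897 CPM in mTEChi, with 4 of 5 called lower in mTEChi, and enterocyte and hepatocyte markers to 28.1 to 48.0 and 152 to 177 CPM, with 7 of 7 called higher. The part of these lists was not tested. The number of members called was 15 without mTEClo Ctrl replicate 3 and 17 without replicate 2, against 32 with all libraries.

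In adult mTEChi without Aire much of the kallikrein cluster was lower. Of 56 tested members 35 were lower and 1 higher in AireKO than in WT mTEChi, against 17.8% and 5.63% of all tested genes. In 34 of the 36 called members the groups did not overlap, a count not made over all called genes. Members with reads almost only in WT mTEChi, such as Serpinb13, passed the filter through that group and could only be called lower. In the kallikrein cluster 20 of 24 tested genes were lower, with a median log2 fold change of -2.09 against -0.01 over all genes. The summed kallikrein level was 144 ± 21.2 CPM (SD, n = 4) in AireKO mTEChi, beside 135 ± 32.1 CPM in WT mTEClo. All 12 genes from Klk4 to Klk15 were lower (median -2.86), and so were 8 of 12 tested Klk1 and Klk1b genes (median -1.76).

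**Figure D1:**
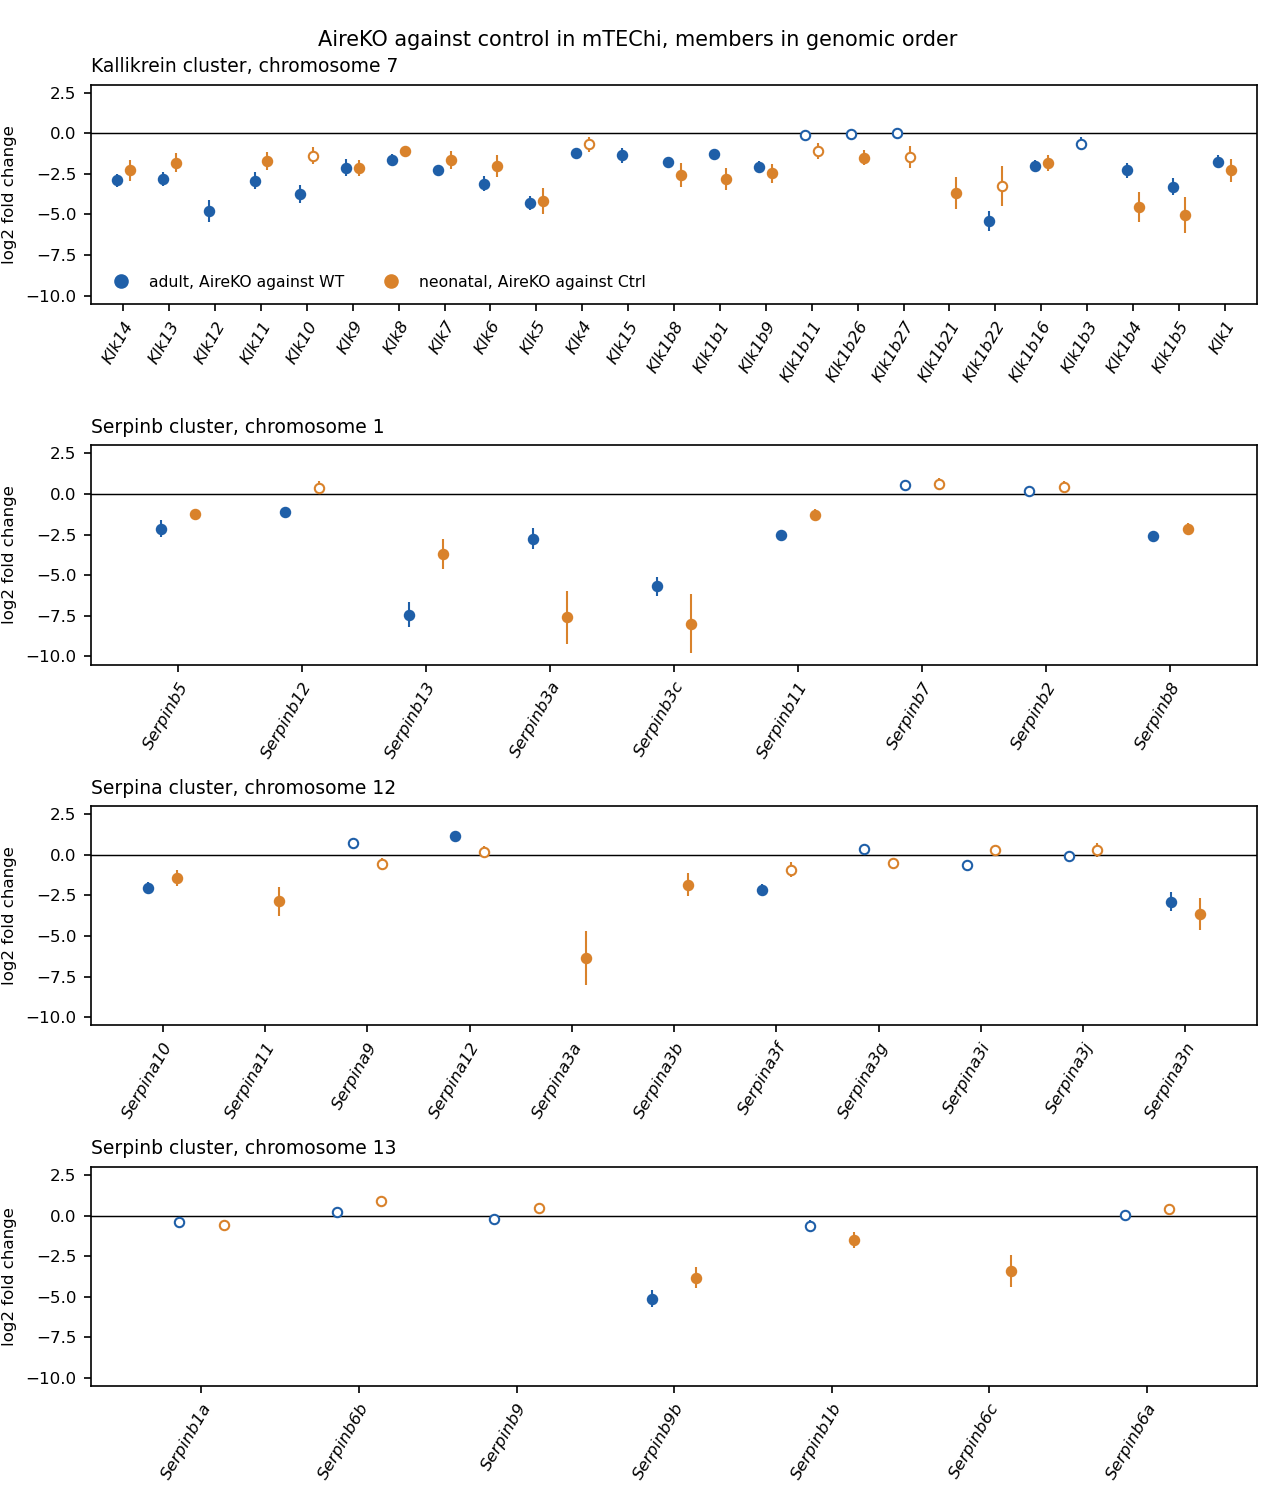
Log2 fold change of each tested serpin and kallikrein gene in AireKO against control mTEChi, by genomic cluster, in adult (WT, n = 7, against AireKO, n = 4) and neonatal (Ctrl, n = 5, against AireKO, n = 3) libraries; filled markers were called (adjusted p below 0.05 and at least 2-fold), open markers were not, and bars are standard errors. In adult cells the 12 genes from Klk4 to Klk15 were all called lower, while Klk1b11, Klk1b26 and Klk1b27 lay near 0.

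Klk5, an activator of the skin kallikrein cascade, ranged from 16.2 to 28.6 CPM (median 21.6) in the 7 WT mTEChi libraries and had 0.439, 0, 3.08 and 0.418 CPM in the 4 AireKO libraries, a log2 fold change of -4.28 ± 0.45 (adjusted p = 7.51e-09). Klk12 ranged from 3.10 to 11.1 CPM (median 6.04) in WT and had 0, 0.409, 0 and 0.418 CPM in AireKO libraries (-4.78 ± 0.66, adjusted p = 7.32e-07). Klk1b22 ranged from 6.30 to 14.2 CPM (median 10.4) in WT and had 0, 0, 0.685 and 0 CPM in AireKO libraries (-5.41 ± 0.63, adjusted p = 4.55e-08). For these 3 genes every AireKO library lay below every WT library, most at or near no reads. Klk7, which cuts the junctions between corneocytes, ranged from 29.4 to 52.6 CPM (median 42.3) and had 6.14, 4.09, 11 and 12.1 CPM, a smaller log2 change of -2.26 ± 0.24 (adjusted p = 1.06e-08), so reads of this gene remained in every AireKO library. Klk13 (-2.82 ± 0.41), Klk14 (-2.91 ± 0.39), Klk10 (-3.72 ± 0.56), Klk6 (-3.11 ± 0.46), Klk11 (-2.91 ± 0.52) and Klk9 (-2.12 ± 0.51) were lower by similar or larger amounts. Klk4, with 17.1, 19.2, 9.93 and 14.6 CPM in AireKO libraries (-1.19 ± 0.24, adjusted p = 0.000152), and Klk15 (-1.34 ± 0.46, adjusted p = 0.0156), the only kallikrein called with overlapping groups, changed least of these 12 genes.

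Neighbouring Klk1b genes differed from one another. Klk1b26 ranged from 28.4 to 42.7 CPM (median 32.3) in WT mTEChi and had 26.8, 29.9, 31.1 and 42.2 CPM in AireKO mTEChi, with overlapping groups and a log2 fold change of -0.06 ± 0.20 (adjusted p = 0.81). Klk1b11, the next gene upstream, ranged from 20.3 to 37.2 CPM (median 23.9) and had 11.8, 18.4, 36.3 and 30.5 CPM (-0.08 ± 0.30, adjusted p = 0.841). Neither gene was called. For Klk1b11 both AireKO libraries of 5 weeks lay below the WT range and both of 6 weeks within it, and age and genotype cannot be told apart for the latter, since no WT mouse was that old. With libraries of 5 weeks only, Klk1b26 (log2 -0.14, adjusted p = 0.517) and Klk1b11 (log2 -0.70, adjusted p = 0.0262) were again not called. Klk1b16, whose promoter window is the closest match to that of Klk1b11, ranged from 20.4 to 41.8 CPM (median 25.0) in WT and had 6.58, 6.14, 11.3 and 3.76 CPM in AireKO libraries, all below the WT range (-2.02 ± 0.34, adjusted p = 1.39e-05). Klk1b5 ranged from 3.90 to 8.93 CPM (median 5.74) and had 0.439, 0.409, 0.685 and 0.835 CPM (-3.29 ± 0.54, adjusted p = 8.68e-06). Klk1b9 (-2.06 ± 0.33), Klk1b4, the alpha subunit of the nerve growth factor complex (-2.27 ± 0.46), Klk1 (-1.74 ± 0.40), Klk1b8 (-1.79 ± 0.33) and Klk1b1 (-1.28 ± 0.27) were also lower. The Klk1 and Klk1b genes share 10.1 to 33.9% of their exonic 50-base windows with other genes. The transcript 2310002F09Rik overlaps Klk8 to Klk14 on the opposite strand, of which Klk8 shares 21.7% and Klk14 21.0% of their windows with a gene that is no member and the others none. The antisense gene Gm44756 overlaps Klk15, which shares 47.1% of its windows, and Klk1b8, Klk1b1 and Klk1b9, and where exons are shared, unstranded counts cannot be told apart.

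In the Serpinb cluster of chromosome 1, 7 of 9 tested genes were lower in AireKO mTEChi, with a median log2 fold change of -2.53. Serpinb13 ranged from 3.55 to 10.3 CPM (median 9.60) in WT libraries and had no read in any of the 4 AireKO libraries, which made it at least 26.2-fold lower, taking 3 counts over the AireKO group as the limit (adjusted p = 5.96e-08). Serpinb3c, one of the mouse counterparts of squamous cell carcinoma antigen, ranged from 4.34 to 9.60 CPM (median 7.80) and had 0, 0.409, 0 and 0 CPM (-5.68 ± 0.57, adjusted p = 1.09e-08). Serpinb3a ranged from 1.80 to 11.1 CPM (median 8.70) and had 0, 0, 0.342 and 4.18 CPM (-2.75 ± 0.65, adjusted p = 0.000709). The groups of Serpinb3a overlapped through AireKO replicate 4, whereas those of Serpinb13 and Serpinb3c did not. Serpinb8 had 0.878, 4.09, 4.45 and 7.10 CPM in AireKO libraries against 18.4 to 31.0 CPM (median 27.5) in WT (-2.59 ± 0.32, adjusted p = 1.11e-07), Serpinb11 changed by -2.53 ± 0.28 (adjusted p = 1.79e-08), Serpinb5 by -2.12 ± 0.52 (adjusted p = 0.00118) and the abundant Serpinb12 by -1.09 ± 0.22 (adjusted p = 0.000144). Serpinb2, next to Serpinb8, ranged from 86.4 to 152 CPM (median 125) in WT and had 86.0, 92.1, 189 and 186 CPM in AireKO libraries, which overlapped and were not called (0.20 ± 0.24, adjusted p = 0.495; log2 -0.32, adjusted p = 0.058 with libraries of 5 weeks only), and Serpinb7 was not called either (0.54 ± 0.30, adjusted p = 0.126). Serpinb3c overlaps Serpinb3b in the annotation.

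The other serpins lie on chromosome 13, on chromosome 12 or outside the clusters. On chromosome 13, 1 of 6 tested genes was lower: Serpinb9b, which inhibits granzyme M, ranged from 8.67 to 14.3 CPM (median 11.4) in WT and had 0, 0, 0 and 1.25 CPM in AireKO libraries (-5.12 ± 0.51, adjusted p = 3.41e-09) and lies opposite the antisense gene Gm36099, with 5.4% of its exonic windows shared with other genes. The abundant genes beside it were not called, among them Serpinb9 with 273 ± 51.8 CPM (SD, n = 7) and 240.0 ± 13.9 CPM (n = 4) and Serpinb6a, an inhibitor of cathepsin G, with 131 ± 24.5 CPM and 135 ± 9.95 CPM. In the Serpina cluster Serpina3n (-2.88 ± 0.57, adjusted p = 0.000122), Serpina3f (-2.16 ± 0.35, adjusted p = 9.32e-06) and Serpina10 (-2.05 ± 0.39, adjusted p = 6.39e-05) were lower in AireKO, and Serpina12, known as vaspin and an inhibitor of KLK7, was higher, with 68.0, 69.6, 37.3 and 32.6 CPM against 17.1 to 27.5 CPM (median 25.0) (1.14 ± 0.25, adjusted p = 0.000369). The call of Serpina12 ended when AireKO replicate 1 or replicate 2 was left out (log2 0.99 and 0.97) and with library size alone (0.97), whereas it was called with libraries of 5 weeks only (log2 1.54, adjusted p = 4.26e-08). Summed over the Serpina cluster, WT mTEChi held 276 ± 19.5 CPM (SD, n = 7) and AireKO mTEChi 275 ± 31.6 CPM (n = 4). Of the single genes Serping1, the inhibitor of complement C1 (-1.40 ± 0.22, adjusted p = 7.03e-06), Serpinh1 (-1.18 ± 0.22, adjusted p = 5.37e-05), Serpine2 (-1.13 ± 0.22, adjusted p = 7.42e-05) and Serpind1, heparin cofactor II (-1.05 ± 0.26, adjusted p = 0.00134), were lower.

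**Figure D2:**
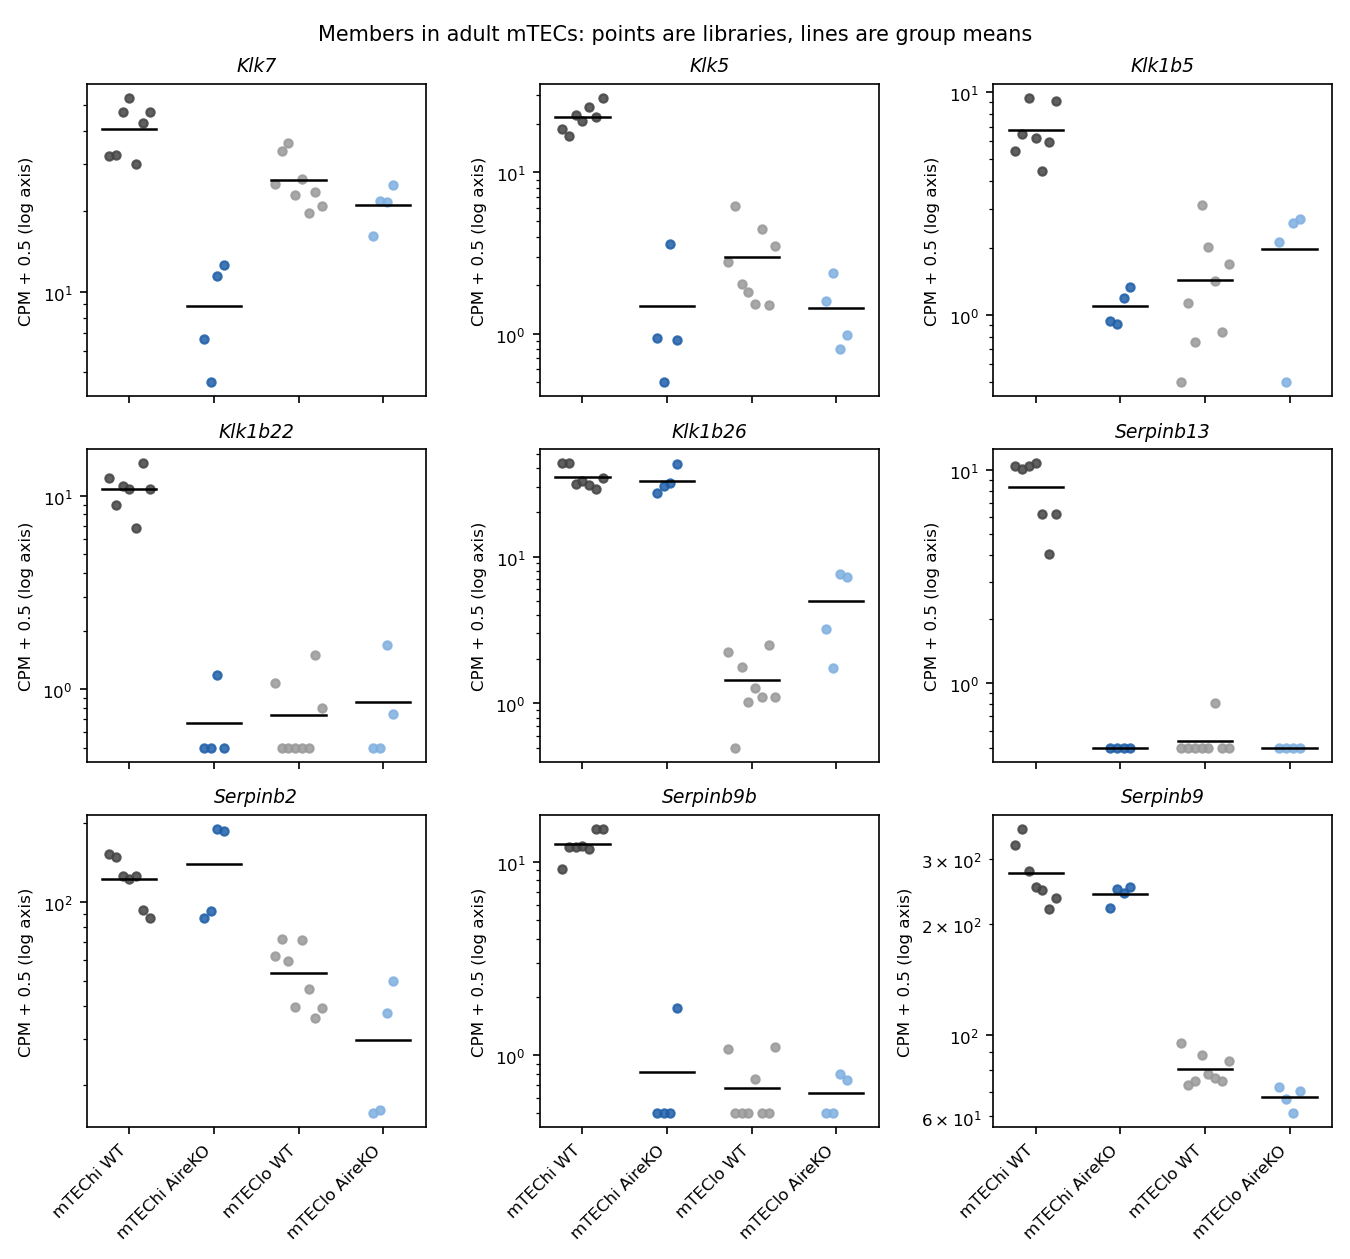
Levels of 9 members in the adult libraries on a log axis (CPM + 0.5), by group: WT mTEChi (n = 7), AireKO mTEChi (n = 4), WT mTEClo (n = 8) and AireKO mTEClo (n = 4); points are libraries and lines are group means. Serpinb13 is at 0 in all 4 AireKO mTEChi libraries, and Klk1b26 and Serpinb9 keep overlapping values in WT and AireKO mTEChi.

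Other markers moved with genotype in adult mTEChi. The 9 cornified keratinocyte markers, of a skin-like mimetic cell type in which Klk and Serpinb genes are known to be used, summed to 287 to 429 CPM with Aire and 140 to 315 CPM without it. The 5 cortical epithelial markers summed to 545 to 599 and 811 to 897 CPM, the 6 thymocyte markers to 79.3 to 111 and 43.1 to 56.9 CPM, and the 4 myeloid markers to 231 to 294 and 352 to 406 CPM. Enterocyte and hepatocyte markers reached a sum of 193 to 257 CPM in the WT and of 92.6 to 132 CPM in the AireKO mTEChi libraries, with 5 of 7 called lower and Alb at 0 without Aire, and muscle markers to 29.1 to 58.7 and 10.9 to 15.8 CPM. Their part in the results was not tested, and in bulk samples fewer cells of a type and less RNA per cell cannot be told apart. With library kind as a term in the model, which rests on AireKO mTEClo libraries, 28 members were called in adult mTEChi, 26 lower and 2 higher, of which 22 were among the 36. Serpinb13, Serpinb3c, Klk12 and Klk5 were not called in that fit (log2 -7.42, -5.68, -6.78 and -2.53). With libraries of 5 weeks only (5 WT and 2 AireKO mTEChi), 35 members were lower and 2 higher, of which 32 were among the 36, and Serpine2, Serpinh1, Serpind1 and Klk15 were not called.

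In adult mTEClo, 10 of 56 tested members were lower and 5 higher in AireKO libraries, against 3.88% and 4.42% of all genes (8.30% in all). The lower genes were Klk6, Klk10, Klk11, Klk13 and Klk14 of the kallikreins, Serpina10, Serpinb3c, Serpinb8, Serpinb11 and Serpind1. Klk10 ranged from 3.93 to 15.3 CPM (median 6.92) in WT and had 4.33, 3.13, 0.596 and 0.243 CPM in AireKO mTEClo (-2.25 ± 0.46, adjusted p = 0.000709). Klk6, a protease of brain and skin, ranged from 8.06 to 36.9 CPM (median 17.1) and had 10.8, 3.76, 0.596 and 3.16 CPM (-2.17 ± 0.49, adjusted p = 0.00172). In both genes AireKO replicates 3 and 4, the libraries with 0 mitochondrial counts, were lowest, and replicate 1 lay within the WT range. Serpinb11 ranged from 29.4 to 52.3 CPM (median 38.8) in WT and had 11.9, 15.7, 17.0 and 17.0 CPM in AireKO libraries (-1.30 ± 0.20, adjusted p = 2.15e-05), and Serpina10 from 13.2 to 37.2 CPM (median 20.8) with 4.33, 6.26, 4.76 and 7.04 CPM (-1.96 ± 0.29, adjusted p = 1.28e-05). No AireKO library of these serpins reached the WT range. Serpind1, with 2.71, 2.50, 2.38 and 2.67 CPM against 4.60 to 8.39 CPM (median 6.23) (-1.34 ± 0.28, adjusted p = 0.000781), and Klk14, with 2.17, 1.88, 2.98 and 3.88 CPM against 1.68 to 16.8 CPM (median 7.81) (-1.46 ± 0.44, adjusted p = 0.016), were lower as well, but Klk14 was not called with male libraries only (-0.84). Cortical epithelial markers reached a sum of 398 to 536 CPM in the WT and of 610 to 703 CPM in the AireKO mTEClo libraries, with 3 of 5 called higher, myeloid markers to 33.9 to 63.1 and 106 to 139 CPM, and enterocyte and hepatocyte markers to 29.7 to 68.0 and 15.0 to 23.5 CPM. Their part was not tested here either.

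The 5 higher genes were Serpinf1, Klk1b1, Klk1b3, Klk1b11 and Klk1b26. Serpinf1 ranged from 2.10 to 10.3 CPM (median 3.44) in WT and had 7.04, 9.39, 26.5 and 36.4 CPM in AireKO mTEClo (2.42 ± 0.36, adjusted p = 1.16e-05). Klk1b26 ranged from 0 to 2.01 CPM (median 0.687) and had 2.71, 1.25, 7.15 and 6.80 CPM (2.41 ± 0.39, adjusted p = 4.36e-05). The high values of both were those of replicates 3 and 4. With only libraries that held mitochondrial counts, which leaves AireKO replicates 1 and 2, 12 members were called and 5 of the 15 were among them: Serpinb11 (-1.47), Serpinb8 (-2.10), Klk13 (-2.59), Serpina10 (-2.07) and Serpind1 (-1.30). Serpinf1 (log2 1.06), Klk1b1 (1.48), Klk1b3 (1.39), Klk1b26 (1.09), Klk10 (-0.97), Klk6 (-1.22), Klk11 (-1.53), Klk14 (-1.98) and Serpinb3c (-3.74) were then not called, and Klk1b11 had a log2 difference of -0.63. With libraries of 5 weeks only, which leaves the same AireKO libraries, 10 members were called, 5 of them among the 15. Within AireKO mTEClo, 25 of 56 tested members differed at least 2-fold, without overlap, between the pairs of libraries with and without mitochondrial counts, which were also those of 5 and of 6 weeks, so that library kind and age cannot be told apart. The same count was not made over all genes, and pairs of libraries often separate by chance. Some of the 25 were near no reads, such as Klk1b8 (means of 0 and 0.568 CPM). Serpinb5 had 5.01 to 8.12 CPM with and 26.8 to 42.7 CPM without them, and Klk5 1.08 to 1.88 CPM with and 0.298 to 0.486 CPM without them.

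The difference between both Aire effects was tested as an interaction, in which 23 of 56 tested members were lower, against 2121 of all 19310 genes (13.7% of genes were called in either direction), that is, the AireKO change was more negative in mTEChi than in mTEClo. The 12 kallikreins in this set held 9 of the 12 tested Klk1 and Klk1b genes, among them Klk1b22 (-6.40 ± 1.44, adjusted p = 0.00142), Klk1b5 (-3.97 ± 0.79, adjusted p = 0.000442), Klk1b9 (-3.51 ± 0.74, adjusted p = 0.000737) and Klk1b1 (-3.37 ± 0.63, adjusted p = 0.000226). In AireKO mTEChi Klk1b9 had 3.07, 4.91, 8.56 and 7.10 CPM and Klk1b1 4.39, 6.14, 4.11 and 3.76 CPM, and in AireKO mTEClo 0, 0.626, 2.38 and 2.67 CPM and 1.08, 0.626, 2.68 and 0.728 CPM, where WT mTEClo ranged from 0 to 3.45 CPM (median 0.415) and from 0 to 0.636 CPM (median 0.418). Klk7 (-1.99 ± 0.32, adjusted p = 3.17e-05) had the smallest adjusted p of the kallikreins, and its WT mTEClo level of 25.6 ± 5.81 CPM (SD, n = 8) stood beside 20.7 ± 3.66 CPM (n = 4) in AireKO mTEClo. Klk1b26 was called here (-2.47 ± 0.44, adjusted p = 0.00012) with an AireKO difference of -0.06 in mTEChi and 2.41 in mTEClo. In AireKO mTEClo, Klk1b26 had 7.15 and 6.80 CPM in the libraries without mitochondrial counts (replicates 3 and 4) and 2.71 and 1.25 CPM in the others. With only libraries that held mitochondrial counts, its mTEClo difference was not called. Serpinb9b (-5.24 ± 1.75, adjusted p = 0.0273) and Serpinb3a (-3.68 ± 1.31, adjusted p = 0.038) were called too. In WT mTEClo, Klk1b22 had at most 3 reads, Serpinb9b at most 2 and Serpinb3a at most 5 in any library, and Klk1b9 and Klk1b1 were near no reads in most. Klk1b5 had at most 10 reads in any of them, and other Klk1b genes were low there too, such as Klk1b8 with at most 4. Such genes could hardly be lower in AireKO mTEClo. For them the term cannot tell whether the Aire effect differs between the fractions. Serpinb9b, Klk1b22 and Serpinb3a lost the call without AireKO mTEClo replicate 3 (-4.88, -4.91 and -2.21), Serpinb9b also without replicate 4 (-4.99), and Serpinb3a also without AireKO mTEChi replicate 1, 2 or 3 or WT mTEClo replicate 4 or 8. With libraries of 5 weeks only 9 members were lower in this test.

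The same question was asked in newborns. In neonatal mTEChi 34 of 59 tested members were lower and 0 higher in AireKO than in Ctrl libraries, against 12.8% and 3.56% of all genes. Here all libraries held mitochondrial counts (6791 to 10410). The lower genes were 17 of 22 tested kallikreins (median log2 fold change -2.07), 6 of 9 tested Serpinb genes of chromosome 1, 3 of 7 of chromosome 13, 5 of 11 of the Serpina cluster and 3 of 10 single genes. Summed kallikreins stood at 359 ± 47.0 CPM (SD, n = 5) in Ctrl and 105 ± 19.2 CPM (n = 3) in AireKO mTEChi. Without AireKO replicate 3, 20 members were called. The AireKO mice were 4 to 6 days old and the Ctrl mice 1 to 6 days, so age and genotype were partly mixed. With age class as a term, 27 members were called, all lower, of which 25 were among the 34.

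Klk5 had 12.9, 9.82, 11.6, 6.07 and 7.03 CPM in Ctrl and 0.685, 0.689 and 0.283 CPM in AireKO mTEChi (-4.18 ± 0.80, adjusted p = 0.000577). Klk1b5 had 7.31, 8.09, 5.50, 6.07 and 5.86 CPM in Ctrl and 0.685, 0 and 0 CPM in AireKO libraries (-5.01 ± 1.12, adjusted p = 0.00277). Klk1b4 had 8.44, 10.4, 7.70, 8.18 and 6.32 CPM and 0.685, 0 and 0.283 CPM (-4.53 ± 0.92, adjusted p = 0.00136). No AireKO library reached the lowest Ctrl library of these genes. Serpinb3a had 7.88, 9.82, 7.15, 6.34 and 9.37 CPM in Ctrl and no read in the 3 AireKO libraries, at least 17.4-fold lower with 3 counts over the group as the limit (adjusted p = 0.00201). Serpinb3c had 12.9, 9.24, 7.70, 8.98 and 13.6 CPM in Ctrl and no read in AireKO libraries, at least 22.6-fold lower by the same limit (adjusted p = 0.00307). Serpinb9b had 7.31, 12.1, 23.7, 22.7 and 26.0 CPM and 0.685, 0 and 2.26 CPM (-3.81 ± 0.64, adjusted p = 0.000156), again with no overlap. Klk1b26, which was not called in adult mTEChi, had 25.9, 15.6, 22.3, 30.1 and 24.4 CPM in Ctrl and 15.1, 4.82 and 6.21 CPM in AireKO libraries, lower in each (-1.50 ± 0.48, adjusted p = 0.0218).

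Serpinb12 was not called in neonatal AireKO mTEChi (0.37 ± 0.40, adjusted p = 0.528), with 87.8, 88.4, 73.7, 68.4 and 103 CPM in Ctrl and 92.5, 143 and 92.1 CPM in AireKO libraries. Serpinb2 was not called either, with 92.8, 94.7, 98.5, 84.2 and 104 CPM and 151, 97.8 and 139 CPM. Klk4 had 29.2, 21.9, 31.1, 28 and 37.7 CPM and 22.6, 12.4 and 20.1 CPM, a log2 difference of -0.69 ± 0.47 (adjusted p = 0.29). Of other roles, Serpina3n (-3.65 ± 0.98, adjusted p = 0.0079), Serping1 (-2.47 ± 0.55, adjusted p = 0.0021), Serpinf1 (-1.96 ± 0.41, adjusted p = 0.00115), Serpinb8 (-2.13 ± 0.35, adjusted p = 0.000151) and Serpinb1b (-1.51 ± 0.48, adjusted p = 0.0208) were lower. The cornified keratinocyte markers summed to 277 to 395 CPM in Ctrl and 179 to 243 CPM in AireKO mTEChi. Their part in these results was not tested.

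The EED comparison asked which members depend on PRC2. In neonatal mTEChi 15 of 59 tested members were lower and 4 higher in EEDcKO than in Ctrl libraries, against 5.40% and 8.48% of all genes. The Ctrl libraries are those of the Aire comparison above. The higher genes were Serpinh1 and Serpine2, which stand alone, and Klk4 and Klk8 in the kallikrein cluster, where 5 other genes were lower. Loss of EED thus went with changes in both directions inside 1 gene array.

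Serpinh1 had 24.2, 32.9, 38.2, 39.1 and 41.2 CPM in Ctrl and 86.7, 152 and 118 CPM in EEDcKO mTEChi (1.75 ± 0.23, adjusted p = 9.1e-06). Serpine2 had 18.0, 22.5, 23.9, 28 and 33.0 CPM in Ctrl and 68.1, 65.4 and 79.6 CPM in EEDcKO libraries (1.47 ± 0.22, adjusted p = 3.17e-05). Klk8 had 9.56, 11.6, 9.90, 6.07 and 14.1 CPM and 23.5, 19.7 and 20.8 CPM (1.05 ± 0.26, adjusted p = 0.00387). All EEDcKO libraries lay above all Ctrl libraries for these genes, although Klk8 was short of 2-fold without Ctrl replicate 4 (0.89) or EEDcKO replicate 1 (0.99). Klk4 had 29.2, 21.9, 31.1, 28 and 37.7 CPM in Ctrl and 67.5, 52.7 and 121 CPM in EEDcKO libraries (1.43 ± 0.40, adjusted p = 0.00868), and lost its call without EEDcKO replicate 3, the highest (1.00). The 5 mesenchyme markers (Pdgfra, Pdgfrb, Col1a1, Col1a2, Dcn), cells in which Serpinh1, Serpine2 and Serpinf1 are also used, summed to 233 to 307 CPM in Ctrl and 483 to 766 CPM in EEDcKO mTEChi, none of the 5 at 0. Their part in the result was not tested.

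Klk1b16, known as gamma-renin, had 11.2, 13.9, 20.9, 27.5 and 31.8 CPM in Ctrl and 2.48, 3.06 and 0.944 CPM in EEDcKO mTEChi (-3.27 ± 0.52, adjusted p = 7.51e-05). Serpina7 had 40.5, 43.3, 35.2, 46.7 and 28.8 CPM in Ctrl and 6.81, 2.62 and 4.72 CPM in EEDcKO libraries (-3.17 ± 0.65, adjusted p = 0.000789). Klk1b26 had 25.9, 15.6, 22.3, 30.1 and 24.4 CPM and 11.8, 3.72 and 4.72 CPM (-1.96 ± 0.48, adjusted p = 0.0035). In each of these genes the highest EEDcKO library lay below the lowest Ctrl library. Klk7 (-1.72 ± 0.54, adjusted p = 0.017), Klk1b11 (-1.77 ± 0.52, adjusted p = 0.0123) and Klk1b1 (-1.56 ± 0.54, adjusted p = 0.0309) were lower with calls that ended when a single EEDcKO library was left out (replicate 1 or 3 for Klk7, 2 or 3 for Klk1b11, 3 for Klk1b1) and, for Klk1b1, also without Ctrl replicate 4 or 5. In EEDcKO libraries Klk7 had 4.96, 16.4 and 6.92 CPM (Ctrl 29.2, 26.0, 34.9, 34.8 and 40.7 CPM). Klk1b11 had 11.8, 5.91 and 3.15 CPM (Ctrl 19.1, 13.9, 28.6, 29.3 and 17.8 CPM), and Klk1b1 3.10, 3.50 and 1.26 CPM (Ctrl 6.19, 6.93, 7.43, 8.45 and 9.37 CPM). Serpinb12 (-1.12 ± 0.43, adjusted p = 0.0496), Serpinb7 (-1.31 ± 0.40, adjusted p = 0.0152) and Serpinb2 (-1.05 ± 0.39, adjusted p = 0.0429) fell too, all members of the chromosome 1 cluster. Cornified keratinocyte markers summed to 277 to 395 CPM in Ctrl and 196 to 273 CPM in EEDcKO mTEChi, with 4 of 9 called lower, enterocyte and hepatocyte markers to 152 to 177 and 53.6 to 118 CPM, and muscle markers to 29.5 to 50.6 and 89.9 to 106 CPM. These values stand beside the result, and their part in it was not tested. The number of members called in all was 11 without EEDcKO replicate 2 and 12 without Ctrl replicate 4, Ctrl replicate 5 or EEDcKO replicate 3, against 19 with all libraries.

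In neonatal mTEClo 12 members were lower and 5 higher in EEDcKO than in Ctrl libraries, against 6.22% and 9.51% of all genes. Klk8 had 3.04, 2.81 and 0.563 CPM in Ctrl and 12.1, 11.5, 19.4 and 13.6 CPM in EEDcKO mTEClo (2.60 ± 0.36, adjusted p = 1.4e-05). Serping1 had 14.2, 11.9 and 10.1 CPM and 28.6, 29.1, 71.0 and 65.6 CPM (2.00 ± 0.43, adjusted p = 0.00129). Serpinb11 had 14.9, 28.8 and 29.3 CPM and 69.7, 83.7, 48.2 and 72.7 CPM (1.51 ± 0.34, adjusted p = 0.00189). Every EEDcKO library exceeded every Ctrl library for these genes. EEDcKO replicates 3 and 4, with the highest Serping1 values, came from mice of 6 and 4 days, older than the Ctrl mice. With age class as a term, 15 members were called, 10 lower and 5 higher, of which 14 were also called without it. Serpinb5, with 6.75, 8.42 and 11.8 CPM and 20.9, 21.6, 21.8 and 28.5 CPM (1.40 ± 0.24, adjusted p = 0.000166), and Serpine2, with 61.1, 59.3 and 100.1 CPM and 207, 199, 113 and 159 CPM (1.22 ± 0.22, adjusted p = 0.000257), were the other higher genes.

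Klk1b16 had 14.2, 3.86 and 9 CPM in Ctrl and 0, 0.719, 0.426 and 0 CPM in EEDcKO mTEClo (-4.83 ± 0.70, adjusted p = 2.58e-05). Serpinb9b had 6.42, 6.66 and 4.5 CPM and 0, 0.719, 0.640 and 0.252 CPM (-3.72 ± 0.72, adjusted p = 0.000496). Klk1b26 had 7.09, 4.56 and 11.8 CPM and 0.673, 1.80, 0.213 and 0 CPM (-3.63 ± 0.68, adjusted p = 0.000353). All 3 were close to no reads without EED. Serpinb12 had 27.4, 30.5 and 18.6 CPM in Ctrl and 3.70, 5.39, 1.92 and 1.01 CPM in EEDcKO libraries (-3.20 ± 0.59, adjusted p = 0.000314), and Serpinb9 stood at 107 ± 14.7 CPM (SD, n = 3) and 39.9 ± 9.43 CPM (n = 4; -1.42 ± 0.28, adjusted p = 0.000511). Klk5 (-4.40 ± 0.89, adjusted p = 0.000671), Klk1b11 (-2.50 ± 0.70, adjusted p = 0.00955) and Klk7 (-1.54 ± 0.58, adjusted p = 0.0488) were lower too, of which Klk1b11 lost the call without Ctrl replicate 2 (-2.10) and Klk7 without Ctrl replicate 1 or 2 or EEDcKO replicate 1 or 2. Beside these values, cortical epithelial markers summed to 1810 to 2727 CPM in Ctrl and 369 to 839 CPM in EEDcKO mTEClo, and mesenchyme markers to 117 to 124 and 448 to 635 CPM. Their part in the result was not tested.

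The double knockout asked whether the EED effect needs Aire. In mTEChi 10 members were higher and 2 lower in AireEEDdKO than in AireKO libraries, against 6.69% and 2.78% of all genes (9.47% in all). Klk8 had 4.11, 2.75 and 6.21 CPM in AireKO and 17.1, 19.6 and 16.0 CPM in AireEEDdKO mTEChi (1.88 ± 0.35, adjusted p = 0.000627). Klk4 had 22.6, 12.4 and 20.1 CPM and 118, 90.7 and 77.3 CPM (2.35 ± 0.50, adjusted p = 0.00223). Serpine2 had 21.2, 8.95 and 19.5 CPM and 56.5, 68.2 and 60.6 CPM (1.86 ± 0.28, adjusted p = 6.69e-05). These 3 genes and Serpinh1 (1.42 ± 0.30, adjusted p = 0.00169) were the genes called higher in EEDcKO against Ctrl, and here, without Aire, all of their AireEEDdKO libraries lay above the AireKO libraries. Serpinf1, with 2.74, 1.38 and 4.52 CPM and 21.2, 22.0 and 16.4 CPM (2.56 ± 0.43, adjusted p = 0.000225), had the largest change. Mesenchyme markers summed to 218 to 304 CPM in AireKO mTEChi, with Pdgfra at 0, and 362 to 642 CPM in AireEEDdKO mTEChi. In the same order, cornified keratinocyte markers summed to 179 to 243 and 114 to 174 CPM, enterocyte and hepatocyte markers to 78.8 to 149 and 33.7 to 51.2 CPM, and muscle markers to 18.6 to 47.3 and 113 to 206 CPM. None of these lists was tested for its part.

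Serpina9, with 17.1, 30.3 and 25.4 CPM in AireKO and 65.3, 101 and 42.0 CPM in AireEEDdKO libraries (1.49 ± 0.39, adjusted p = 0.00968), lost its call without AireEEDdKO replicate 2 (1.12). Serpinb1b had 2.06, 1.38 and 2.83 CPM and 6.47, 7.51 and 6.74 CPM (1.60 ± 0.52, adjusted p = 0.0362), and its call ended without any 1 of the 6 libraries. Serpinb12, with 92.5, 143 and 92.1 CPM and 63.6, 35.8 and 20.9 CPM (-1.48 ± 0.48, adjusted p = 0.0369), and Serpinb7, with 43.8, 28.2 and 42.7 CPM and 20.0, 16.2 and 6.74 CPM (-1.48 ± 0.43, adjusted p = 0.0196), were lower without EED, with no overlap between the groups. The call of Serpinb12 ended without any library but AireEEDdKO replicate 1 and with DESeq2 (-1.45, adjusted p = 0.132), and that of Serpinb7 without AireEEDdKO replicate 3 or AireKO replicate 1 or 3. In all, 6 members were called without AireKO replicate 3 and 7 without AireEEDdKO replicate 3, against 12 with all libraries. With the replicate number as a block, in a fit of these groups alone that tested 30 members, 15 were called, 10 higher and 5 lower, and 11 of them were among the 12. The fit of these groups alone without the block called 13, of which 10 were among the 12.

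**Figure D3:**
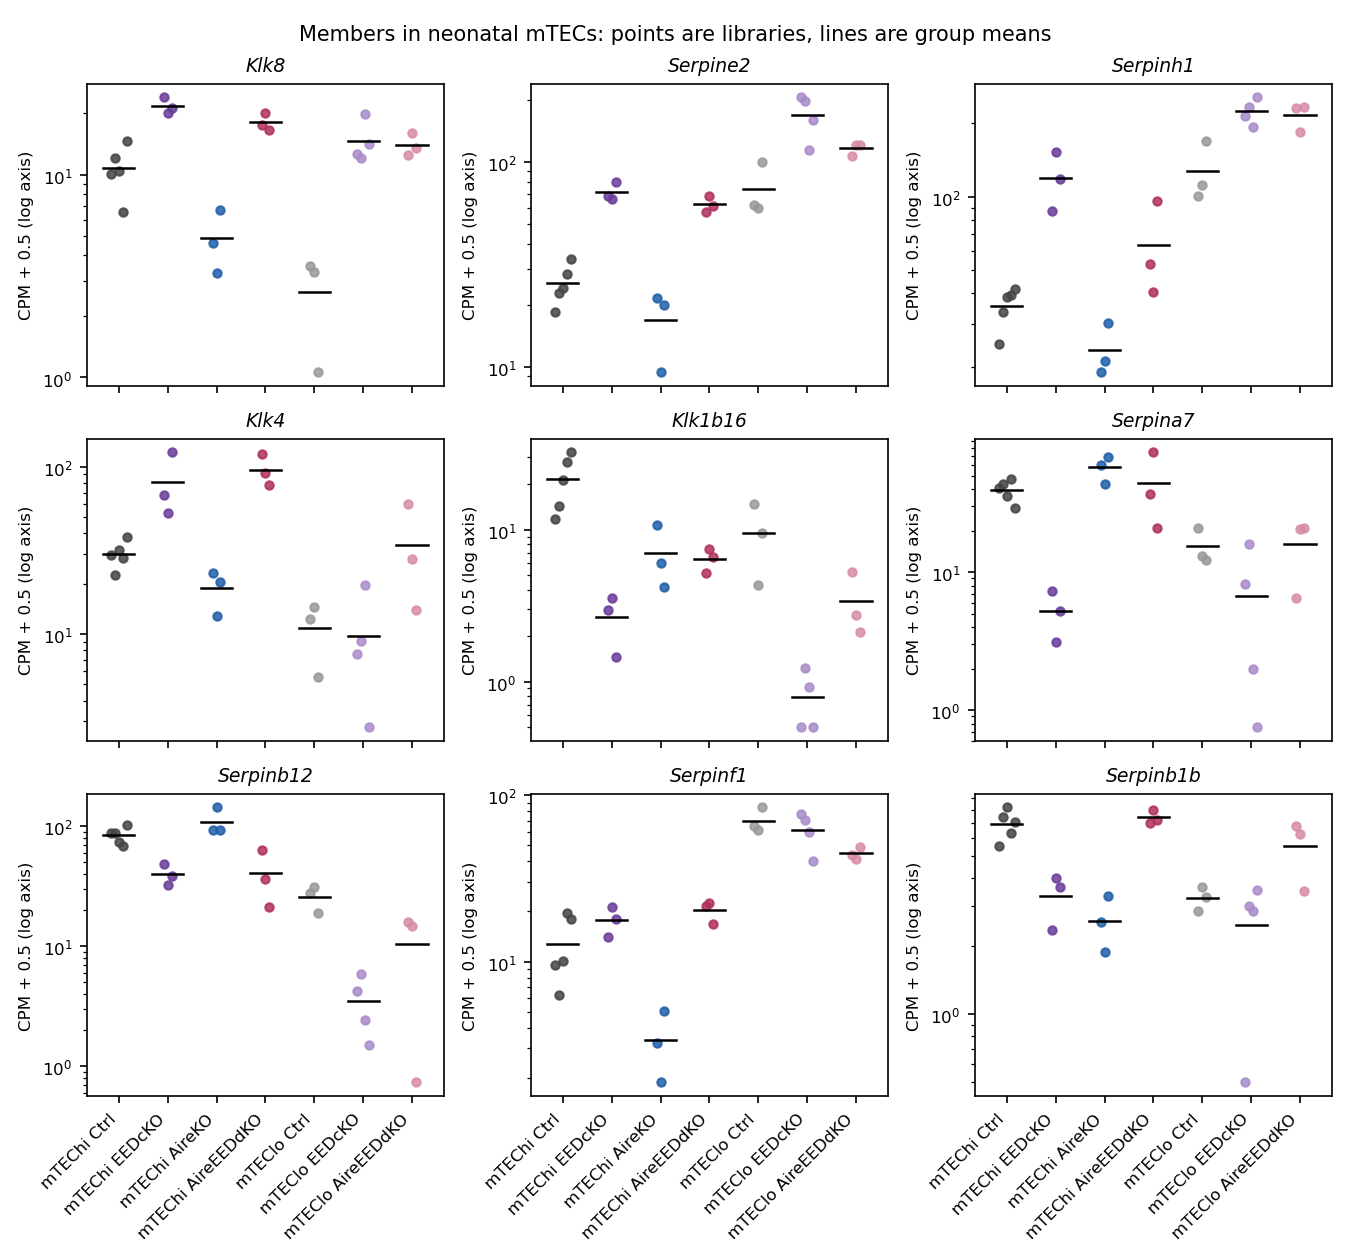
Levels of 9 members in the neonatal libraries on a log axis (CPM + 0.5), by group: mTEChi of Ctrl (n = 5) and of AireKO, EEDcKO and AireEEDdKO (n = 3 each), and mTEClo of Ctrl and AireEEDdKO (n = 3 each) and EEDcKO (n = 4); points are libraries and lines are group means. Klk8 and Serpine2 lie higher in both groups without EED than in the matched groups with EED, and Klk1b16 lies lower in EEDcKO than in AireEEDdKO libraries.

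Aire was also compared where EED is absent. In AireEEDdKO against EEDcKO mTEChi 17 members were lower and 5 higher, against 8.36% and 4.99% of all genes. Klk5 had 1.86, 13.6 and 14.2 CPM in EEDcKO and 0.589, 0.578 and 0.321 CPM in AireEEDdKO libraries (-4.38 ± 0.82, adjusted p = 0.00063). Klk1b5 had 10.5, 1.53 and 3.15 CPM in EEDcKO and no read in the 3 AireEEDdKO libraries, at least 11.1-fold lower with 3 counts over the group as the limit. Serpinb3a had 6.81, 4.16 and 25.2 CPM and 0.589, 0 and 0.642 CPM (-4.62 ± 1.05, adjusted p = 0.00365). Klk5 and both other genes varied widely among EEDcKO libraries but did not overlap with the double knockout. Serpinb3c (-3.49 ± 1.18, adjusted p = 0.0403) rested on EEDcKO replicate 3, without which its log2 change was -0.19. It had 1.86, 0.219 and 19.2 CPM in EEDcKO and 0.589, 0.578 and 0.642 CPM in AireEEDdKO libraries. Klk1b9, with 17.3, 6.78 and 15.4 CPM and 2.35, 1.16 and 0.962 CPM (-3.15 ± 0.70, adjusted p = 0.00284), and Serpina3n, with 25.4, 21.2 and 19.8 CPM and 0, 1.73 and 5.77 CPM (-2.85 ± 0.74, adjusted p = 0.00837), were lower as well. Cornified keratinocyte markers summed to 196 to 273 CPM in EEDcKO and 114 to 174 CPM in AireEEDdKO mTEChi, with 4 of 9 called lower, and tuft cell markers to 48.9 to 198 and 40.4 to 49.5 CPM, with 3 of 3 tested called lower. Their part in these differences was not tested.

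Serpina7 had 6.81, 2.62 and 4.72 CPM in EEDcKO and 36.5, 73.4 and 20.5 CPM in AireEEDdKO mTEChi (3.31 ± 0.69, adjusted p = 0.0017). Serpinb9 had 178, 91.9 and 144 CPM and 522, 436 and 317 CPM (1.64 ± 0.29, adjusted p = 0.00037). Serpina3j changed by 2.07 ± 0.48 (adjusted p = 0.00373), Serpinb6b, an inhibitor of granzyme A, by 1.29 ± 0.28 (adjusted p = 0.00236) and Serpini1, or neuroserpin, by 1.07 ± 0.27 (adjusted p = 0.00736). Serpina3j had 4.96, 7.44 and 14.8 CPM in EEDcKO and 50.6, 38.1 and 30.8 CPM in AireEEDdKO libraries, Serpinb6b 93.5, 50.7 and 76.1 CPM and 209, 176 and 146 CPM, and Serpini1 66.3, 72.2 and 71.7 CPM and 149.5, 163 and 132 CPM. The 5 genes were thus higher where both regulators were missing than where only EED was missing. EEDcKO mice were 1 to 6 and AireEEDdKO mice 4 to 6 days old, and Serpini1 was not called with age as a term (0.65) or without AireEEDdKO replicate 2 (1.00).

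The test of whether the effects of Aire and EED add up on the log scale called 3 members, all higher than additive, against 0.807% of genes called higher and 0.446% lower. Klk1b16 had 11.2, 13.9, 20.9, 27.5 and 31.8 CPM in Ctrl, 10.3, 5.51 and 3.67 CPM in AireKO, 2.48, 3.06 and 0.944 CPM in EEDcKO and 4.71, 6.93 and 6.09 CPM in AireEEDdKO mTEChi (3.24 ± 0.78, adjusted p = 0.038). Serpinb1b had 5.06, 6.93, 7.70, 5.81 and 6.56 CPM, 2.06, 1.38 and 2.83 CPM, 1.86, 3.50 and 3.15 CPM and 6.47, 7.51 and 6.74 CPM in the same order (2.70 ± 0.67, adjusted p = 0.043), and Serpinf1 an interaction of 2.10 ± 0.53 (adjusted p = 0.0433). Klk1b16 and Serpinb1b were lower in either single knockout than in Ctrl, and Serpinf1 was lower in AireKO but not in EEDcKO mTEChi. For all 3 the double knockout lay above the sum of the log2 changes of the single knockouts. Each of the 3 calls ended without many of the single libraries (11 of 14 for Klk1b16 and Serpinf1, 12 of 14 for Serpinb1b), and between 0 and 3 members were called when 1 library was left out.

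In mTEClo 5 members were higher and 3 lower in AireEEDdKO than in EEDcKO libraries, against 3.45% and 1.85% of all genes (5.30% in all). Serpinb6b had 13.8, 19.0, 33.1 and 22.2 CPM in EEDcKO and 100.0, 67.7 and 35.2 CPM in AireEEDdKO mTEClo (1.58 ± 0.27, adjusted p = 0.00102). Serpinb9 had 31.3, 44.9, 50.8 and 32.8 CPM and 142, 108 and 42.4 CPM (1.27 ± 0.27, adjusted p = 0.00563). Klk4 had 7.07, 8.62, 19.2 and 2.27 CPM and 59.0, 27.7 and 13.4 CPM (1.77 ± 0.46, adjusted p = 0.0192). The groups of Serpinb9 and Klk4 overlapped, and both calls ended without AireEEDdKO replicate 1 (0.91 and 1.11). Serpina3j, with 0.673, 2.16, 10.0 and 4.54 CPM and 33.4, 25.2 and 12 CPM (2.30 ± 0.45, adjusted p = 0.00298), and Klk1b16 (3.13 ± 0.79, adjusted p = 0.0158) were higher. Klk13, with 2.36, 2.16, 7.89 and 11.6 CPM and 0.631, 1.03 and 0.695 CPM (-2.90 ± 0.79, adjusted p = 0.0242), Klk1 (-4.74 ± 1.38, adjusted p = 0.0356) and Serpina11 (-2.71 ± 0.78, adjusted p = 0.0325) were lower. Klk13 lost the call without any 1 AireEEDdKO library (-2.75 to -3.15) or without EEDcKO replicate 4 (-2.41), Klk1 and Serpina11 without any 1 AireEEDdKO library or EEDcKO replicate 3, and Klk1b16 without replicate 1 of either group. No member was called with only these groups in the fit, 2 were called without AireEEDdKO replicate 1 and 5 without AireEEDdKO replicate 2.

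Within a cluster the likeness of patterns was described by correlating group means of log2 CPM, with no test. Over the 4 adult groups, adjacent kallikreins had a median r of 0.889 (23 pairs) and other kallikrein pairs 0.670, and Klk5 and Klk12 were most alike (0.996). Over the 7 neonatal groups the medians were 0.795 and 0.733, and Klk1b4 and Klk1b5 were most alike (0.987). On chromosome 1 Serpinb13 and Serpinb3c were most alike in adults (0.979) and Serpinb7 and Serpinb2 in newborns (0.972), and on chromosome 13 it was Serpinb6b and Serpinb9 at both ages (0.969 and 0.945). Adjacent pairs were not always the more alike: in the Serpina cluster of adults their median r was -0.574 (7 pairs) and that of other pairs -0.215, and on chromosome 13 of newborns 0.233 and 0.345. Of 25 protein-coding genes in or within 250 kb of the kallikrein cluster that are no kallikreins, 19 were tested in adults. Of these, 7 were lower and 0 higher in AireKO mTEChi, against 17.8% and 5.63% of all tested genes, beside 20 lower and 0 higher of the 24 kallikreins.

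Among proteases that serpins inhibit (18 genes listed, with earlier results known), 9 were tested in adults and 4 were lower and 0 higher in AireKO mTEChi, where 17.8% of all genes were lower: granzyme B (Gzmb), at 4.80 to 22.3 CPM in WT and without reads in AireKO libraries, Tmprss6 (log2 -2.56 ± 0.30), C1s1 and C1ra. In newborns 8 were tested and 4 were lower in AireKO mTEChi (Gzmb, Tmprss6, Plau and C1s1), against 12.8% of all genes. C1s1 and C1ra were higher and F2 lower in EEDcKO mTEChi, where 8.48% of all genes were higher and 5.40% lower. Of 13 other genes of the epidermal barrier, where KLK5 and KLK7 act, 4 were lower and 0 higher in adult AireKO mTEChi, beside a median log2 fold change of the list of 0.21: corneodesmosin (Cdsn, -3.27 ± 0.58, adjusted p = 2.65e-05), loricrin (Lor), desmocollin 1 (Dsc1) and involucrin (Ivl). In newborns Cdsn alone was called lower in AireKO mTEChi (adjusted p = 0.00927), while the list summed to 1036 to 1198 CPM in Ctrl and 1389 to 1611 CPM in AireKO libraries. Tgm3, Dsc1 and Flg were lower in EEDcKO mTEChi, against 5.40% of all genes, and 5 were lower and 1 higher in EEDcKO mTEClo, against 6.22% and 9.51% of all genes.

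Members with few reads could not be tested. In adult libraries 31 members, of which Serpinb6d had no read at all, and in neonatal libraries 28 members fell under the filter. Of these, 24 had their highest group mean in WT mTEChi and 21 in neonatal Ctrl mTEChi, among them Klk1b24, Serpina6, the corticosteroid carrier, and the Serpina1 copies Serpina1a and Serpina1e. Over all members 27 share no exonic 50-base window with another gene and 15 share at least 25% of them, namely Serpina1a to Serpina1e, Serpina11, Serpinb6a, Serpinb9d to Serpinb9g, Klk15, Klk1b21, Klk1b24 and Serpinc1, so the levels of these are uncertain.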

How the data were processed

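RNA from sorted mTECs was measured in 47 libraries made by a RamDA-type full-length protocol. The deposited counts are whole numbers of reads for each Ensembl gene, in an adult and a neonatal table, which the authors made by trimming reads with fastp (0.20.0), to 50 bases when necessary, mapping them to mm10 with STAR (2.7.3a), filtering alignments of low quality with SAMtools (1.9), taking out duplicates with Picard (2.21.1) and counting without strand with HTSeq (0.11.2). The annotation release is not given in the sources used here. Duplicate removal without molecular identifiers can flatten abundant genes. The authors' normalized tables were not used.

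Groups follow the sample titles, and each count column matched 1 sample. Identifiers were matched to GRCm38 symbols, and members were chosen by symbol. Among the members, 1 enters the counts but is not reported here. Members on a chromosome whose starts lay at most 500 kb apart formed a cluster if there were at least 3 of them, with the same clusters at 1000 kb. In R (4.3.3), each table was filtered with filterByExpr, scaled by TMM and fitted over all its groups with the quasi-likelihood test of edgeR (4.0.16), with Benjamini-Hochberg adjustment over all tested genes. The scripts were tested on simulated data. Library totals (1578579 to 4817418 counts) and a biological coefficient of variation of 14.5% (adult) and 19.8% (neonatal) limit the precision. Limits for genes without reads take 3 counts over a group and cover counting error only.

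The members and lists were chosen with earlier results of these data known. Values by library are given for the member with the highest mean CPM of each cluster and for up to 6 called members in each direction and comparison with a mean of at least 5 CPM, besides other members. Library deviations from group means were correlated to see whether replicate numbers pair libraries. Of same-numbered libraries, only AireEEDdKO and AireKO mTEChi had correlations over 0.1 in every pair (0.108, 0.143 and 0.213). This is a hint from the data and not stated by the labels. Libraries of like age can bear other numbers: EEDcKO and Ctrl mTEChi of the same age had correlations of 0.095 to 0.154. There the replicate number joined libraries of different ages, such as EEDcKO replicate 2 with Ctrl replicate 2. No fit used sets of like age as pairs. The alternatives were other scalings, filters, DESeq2 (1.42.0), terms for age, library kind or replicate number, male libraries only, the compared groups only, adult libraries of 5 weeks only, and each library left out. Motifs and shared 50-base windows were read from GRCm38 sequence with Python (3.11.15) and Biopython (1.88).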

Additional observations from a re-analysis of the deposited data

Results flagged for a closer look

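In 19 of 250 sets of 4 to 10 libraries of a group, 1 library stood apart from the others by Dixon's criterion, which chance does in about 1 of 20 sets. Among adult libraries, AireKO mTEChi replicate 4 had 4.18 CPM of Serpinb3a (others 0 to 0.34) and 1.25 CPM of Serpinb9b (others 0), AireKO mTEChi replicate 3 had 3.08 CPM of Klk5 (others 0 to 0.44), and AireKO mTEClo replicate 4 had 7.28 CPM of Klk1b11 (others 0 to 1.19) and 29.62 CPM of Serpina3j (others 18.16 to 18.94). WT mTEChi replicate 2 had 13.2 CPM of Serpind1 (others 6.2 to 9.06). WT mTEClo replicate 1 had 3.45 CPM of Klk1b9 (others 0 to 1.02), 2.3 CPM of Klk4 (others 0 to 0.67) and 10.34 CPM of Serpinf1 (others 2.1 to 5.6). WT mTEClo replicate 2 had 41.97 CPM of Serpina3j (others 21.15 to 30.34), 30.52 CPM of Serpina7 (others 4.7 to 15.73) and 17.81 CPM of Serpinb7 (others 8.4 to 12.06), and replicate 6 had 1.83 CPM of Klk12 (others 0 to 0.76).

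Among neonatal libraries, EEDcKO mTEClo replicate 3 had 9.17 CPM of Klk1 (others 0.67 to 1.01) and 7.46 CPM of Serpina12 (others 2.87 to 3.03), and replicate 4 had 28.52 CPM of Serpinb5 (others 20.88 to 21.75). Ctrl mTEChi replicate 2 had 5.2 CPM of Klk12 (others 2.11 to 2.81) and 103.96 CPM of Serpinb6b (others 81.96 to 85.54), and replicate 3 had 16.78 CPM of Serpina12 (others 19.69 to 20.22).

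The change without Aire differed between adult mTEChi and mTEClo, by the interaction term of edgeR's quasi-likelihood test, for Klk1b22 (log2 difference -6.40, adjusted p = 0.00142), Serpinb9b (-5.24, 0.0273), Klk1b5 (-3.97, 0.000442), Serpinb3a (-3.68, 0.038), Klk1b9 (-3.51, 0.000737) and Klk1b1 (-3.37, 0.000226), which are among the interactions given above. Of these, Klk1b22, Serpinb9b, Serpinb3a, Klk1b9 and Klk1b1 were at or near no reads in most WT mTEClo libraries, and Klk1b5 had at most 10 reads in any of them. A fall could hardly be seen there. In mTEChi of AireKO mice all libraries, and in mTEClo of AireKO mice replicates 3 and 4, lacked mitochondrial counts, and the part of this in the differences was not tested. The effects of Aire and EED in neonatal mTEChi departed from addition for Klk1b16 (3.24, adjusted p = 0.038), Serpinb1b (2.70, 0.043) and Serpinf1 (2.10, 0.0433).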

How the results depend on the processing

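Of 262 called members over the 12 comparisons, 261 kept their call with RLE size factors, 259 with library size alone and 255 without the filter on low counts. With a replicate block 206 of 232 kept it. The block is a shared number that the labels do not call a pairing, with only a hint of one from the data for AireEEDdKO against AireKO. The block fits held only the groups compared, as did fits without the block that kept 222 of 232, so fewer libraries and members entered (37 members for adult AireKO mTEClo and 41 for EEDcKO mTEClo). A term for library kind ended 25 and reversed 1 of 115 calls, libraries of 5 weeks alone, an alternative chosen after seeing the data, ended 31 and reversed 1 of 115, an age term ended 22 of 147, male libraries alone 14 of 111, and DESeq2 13. Scaling by library size alone shifted the all-gene median of the log2 differences by -0.18 in adult and in neonatal AireKO mTEChi, -0.20 in the adult interaction and -0.15 in AireEEDdKO against EEDcKO mTEChi. The number of members called moved by over 1.5 times in these fits. For adult AireKO mTEClo it was 8 with the replicate block and 9 with only the groups compared (15 otherwise), for adult mTEChi against mTEClo 62 without the filter (40), for AireEEDdKO against EEDcKO 14 with only the groups compared in mTEChi (22), and in mTEClo 15 without the filter, 0 with the block and 0 with only the groups compared (8). For Aire by EED it was 5 without the filter and 6 with only the groups compared (3), and for EEDcKO mTEClo 10 with the block and 13 with only the groups compared (17). The adult interaction called 11 with libraries of 5 weeks only (24). With 1 library left out the numbers ranged from 34 to 39 (adult AireKO mTEChi), 13 to 20 (adult AireKO mTEClo), 38 to 41 (adult WT fractions), 20 to 27 (adult interaction), 20 to 35 (neonatal AireKO), 11 to 17 (EEDcKO mTEChi), 6 to 11 (AireEEDdKO against AireKO), 17 to 24 (AireEEDdKO against EEDcKO), 0 to 3 (Aire by EED), 13 to 22 (EEDcKO mTEClo), 2 to 11 (AireEEDdKO mTEClo) and 15 to 30 (neonatal Ctrl fractions). Klk1b11 in adult AireKO mTEClo ranged from -0.10 to 1.99 with 1 library left out and reversed without AireKO mTEClo replicate 4, to -0.65 with the term for library kind, to -0.63 with libraries that held mitochondrial counts and to -0.80 with libraries of 5 weeks. The causes were not tested. The filter on low counts kept 31 adult and 28 neonatal members from any test.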
